A study of Mus musculus with 6 samples.

Results

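The proteasome is the barrel-shaped protease that degrades ubiquitin-tagged proteins in the cytosol and nucleus, and the peptides it releases are the main source of what MHC class I molecules present. Its 20S core stacks rings of alpha and beta subunits, of which only Psmb5, Psmb6 and Psmb7 cut peptide bonds in the constitutive form. In the immunoproteasome, known for its induction by interferon and its abundance in dendritic cells, these are replaced by Psmb8, Psmb9 and Psmb10. The 19S cap recognises and unfolds ubiquitinated substrates, while PA28, built from Psme1 and Psme2, is an alternative cap that favours peptide release.

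Proteasome genes were taken as all symbols of the subunit and regulator families Psma to Psmg followed by a number, with a mean of at least 0.5 TPM (a transcript's length-scaled share of its library) over the 4 libraries. Of 49 such symbols among 32903 in the table, 47 met the limit, out of 12520 genes that met it in all. Psmd9, at a mean of 25.5 TPM, was the lowest one inside. Of those outside, the thymus-type subunit gene Psmb11 had a mean of 0.203 TPM and the testis-type subunit gene Psma8 was listed at 0 in every library. The lowest single value among the 47 was 20.6 TPM (Psmf1 in NT02), so none passed through the treated group alone.

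Poly(A)-captured RNA came from MuTuDC1940 cells, a dendritic line of mouse origin that resembles the cDC1 subset (type 1 conventional dendritic cells). Cells were left untreated or were given poly(I:C), a synthetic double-stranded RNA, at 5 µg/ml for 18 hours. The libraries compared are those whose columns are headed NT01 and NT02 (untreated) and PolyIC01 and PolyIC02 (treated), 2 per group out of 3 samples each, because the header does not say which group 2 further columns belong to. All are of 1 cell line and are not labelled as separate cultures, so each p-value reflects only how far these libraries differ, possibly for technical reasons.

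Libraries of 1 group correlated at r = 0.997 in log2(TPM + 1) across the 12520 genes, which are not independent replicates, and libraries of different groups at 0.956 to 0.959. Of the 12 cDC1 markers checked, Irf8 stood at 2477 to 2639 TPM, and Clec9a, Xcr1 and Batf3 at over 100 TPM throughout, whereas Itgae was under 1 TPM in every library. Of the 12 markers 5 rose (41.7%), with Xcr1 rising 1.72-fold, and 4 fell (33.3%). The falls included Cd24a from 383 and 381 to 141 and 144 TPM, and Tlr3 to 0.568 and Flt3 to 0.558 of their untreated means. By the same limma threshold (adjusted p under 0.05), 28.4% of all tested genes rose and 32.4% fell, and each count here stands beside these shares. Of 9 macrophage and monocyte markers 7 were tested, of which 5 rose and 1 fell. Their log2 fold changes of TPM + 1 ran from -1.07 to 3.24, with a median of 2.11, so the sum below hides large changes both ways. Summed over the 9, the level was 285 and 288 TPM in untreated and 502 and 517 TPM in treated libraries. Csf1r, too low to be tested, was at 0.272 and 0.469 TPM untreated and listed at 0 in both treated libraries. Of the T cell genes, Cd3e and Cd3g were listed at 0 throughout, Cd3d rose 1.82-fold to 1.59 and 1.47 TPM, and Lck was at 0.0940 and 0.0816 TPM untreated and 0.632 and 0.843 TPM treated. Proliferation genes moved with the treatment, 22 of 25 falling and 1 rising, with a summed level of 4603 and 4610 TPM untreated and 3052 and 3050 TPM treated. The part of these shifts in the results on proteasome genes was not tested, and in bulk RNA fewer cells of a type and less RNA per cell cannot be told apart.

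The stretches before the transcription starts of the immunoproteasome genes are shown first, since these genes share an interferon connection, with those of 2 constitutive partners for contrast. Each holds 120 bases, 5′ to 3′ on the strand of its gene, from RefSeq on GRCm38.p6, and ends at the base before the annotated start. Capitals mark a match to 1 of the motifs searched in the 250 bases before the start: an interferon-stimulated response element (ISRE, written GAAA, any 2 bases, then GAAA), a STAT-binding gamma-activated site (GAS, TTCNNNGAA) and an antioxidant response element core (ARE, TGACNNNGC), on both strands. Psmb8 lies at chr17:34198075-34198194 (+), Psmb9 at chr17:34187331-34187450 (-), Psmb10 at chr8:105938393-105938512 (-), Psme1 at chr14:55578374-55578493 (+), Psme2 at chr14:55591102-55591221 (-, the farther upstream of 2 starts), Psmb5 at chr14:54617996-54618115 (-) and Psmb6 at chr11:70525237-70525356 (+).
Psmb8: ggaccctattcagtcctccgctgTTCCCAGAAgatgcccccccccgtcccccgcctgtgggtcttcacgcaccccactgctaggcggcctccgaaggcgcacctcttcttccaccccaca
Psmb9: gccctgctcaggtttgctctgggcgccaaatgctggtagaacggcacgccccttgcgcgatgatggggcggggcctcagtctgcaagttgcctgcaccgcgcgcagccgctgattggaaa
Psmb10: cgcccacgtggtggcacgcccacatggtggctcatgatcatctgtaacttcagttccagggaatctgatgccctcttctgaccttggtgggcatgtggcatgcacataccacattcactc
Psme1: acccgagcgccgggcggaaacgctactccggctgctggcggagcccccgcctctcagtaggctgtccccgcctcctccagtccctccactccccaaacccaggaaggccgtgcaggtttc
Psme2: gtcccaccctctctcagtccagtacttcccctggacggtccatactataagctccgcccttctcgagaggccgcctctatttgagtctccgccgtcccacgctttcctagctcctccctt
Psmb5: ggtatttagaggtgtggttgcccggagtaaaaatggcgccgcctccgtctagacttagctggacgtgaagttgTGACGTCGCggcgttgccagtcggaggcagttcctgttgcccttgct
Psmb6: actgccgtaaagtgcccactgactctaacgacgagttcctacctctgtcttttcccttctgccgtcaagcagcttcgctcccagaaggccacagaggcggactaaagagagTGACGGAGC

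Among the 5 immunoproteasome genes, Psmb8 alone held any of these motifs, a GAS match 97 to 89 bases before the start. No ISRE match lay in the windows of the 5 genes. Both constitutive genes with a listed promoter held an ARE core, 47 to 39 bases before the start of Psmb5 and 9 to 1 bases before that of Psmb6. Of the 40 proteasome genes searched, those outside chromosome 18 with a listed promoter, 3 held an ISRE (Psmb3, Psmd4 and Psmd9), 2 a GAS (Psmb8 and Psmg1) and 5 an ARE core. These are 7.5%, 5% and 12.5% of the 40, a gene being counted if the window of any of its listed starts held the motif. Counted per promoter and not per gene, the same motifs stood in 2.98%, 7.02% and 10.2% of all 32851 listed promoters. A match describes these letters only, and the lack of one in this window says nothing of the factor. None of these matches overlapped a match to another of the motifs.

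With poly(I:C) 27 of the 47 proteasome genes rose, most of them slightly. Psme2b, Psmb10, Psme2, Psma3, Psme1 and Psmf1 rose by at least 0.5 in log2. In limma (adjusted p under 0.05, Benjamini-Hochberg over all 12520 genes), these 27 rises stood beside 10 falls, and 10 genes did not pass. Over all tested genes 28.4% rose and 32.4% fell, 60.8% together, against 37 of 47 proteasome genes (78.7%). Each count by role below stands beside these shares of all genes. The shifts were small: the median log2 fold change of TPM + 1 was 0.09 for proteasome genes and -0.02 for all genes, and the median size without regard to sign was 0.16 against 0.27. Only 8 of 47 (17.0%) both passed and changed by at least 0.5 on this scale, while 26.2% of all tested genes did. Treated and untreated values did not overlap for 45 of 47, against 81.3% of all genes, with the treated ones higher for 32 (38.9% of all genes) and lower for 13 (42.4%). The proteasome genes were also far more abundant, with a median untreated level of 189 TPM against 17.3 TPM for all tested genes.

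The falls were the less settled part of this count. When each library was divided by its median ratio to the others, 23 rose and 4 fell, and without PolyIC01 19 rose and 6 fell. Smaller rises were lost too: those of Psma6, Psmb1 and Psmd10 without NT01, PolyIC01 or PolyIC02, and those of Psmb2 and Psmc1 without any 1 of the 4 libraries. Of these, the calls of Psma6, Psmb1, Psmb2 and Psmc1 were also lost after scaling and without trend or robust moderation. The sum of the 47 genes was 12274 and 12518 TPM in untreated and 13877 and 13966 TPM in treated libraries, or 1.23% and 1.25% against 1.39% and 1.40% of all transcripts. Both treated libraries were thus above both untreated ones, by a ratio of 1.12. The rise was uneven, with a ratio of 1.29 for the 5 immunoproteasome genes, 1.03 for the 3 constitutive catalytic genes and 1.08 for the other 39. With 2 libraries a group, the smallest two-sided p that exact permutation can give is 0.333, the value found for the sum of the 47 genes.

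**Figure D1:**
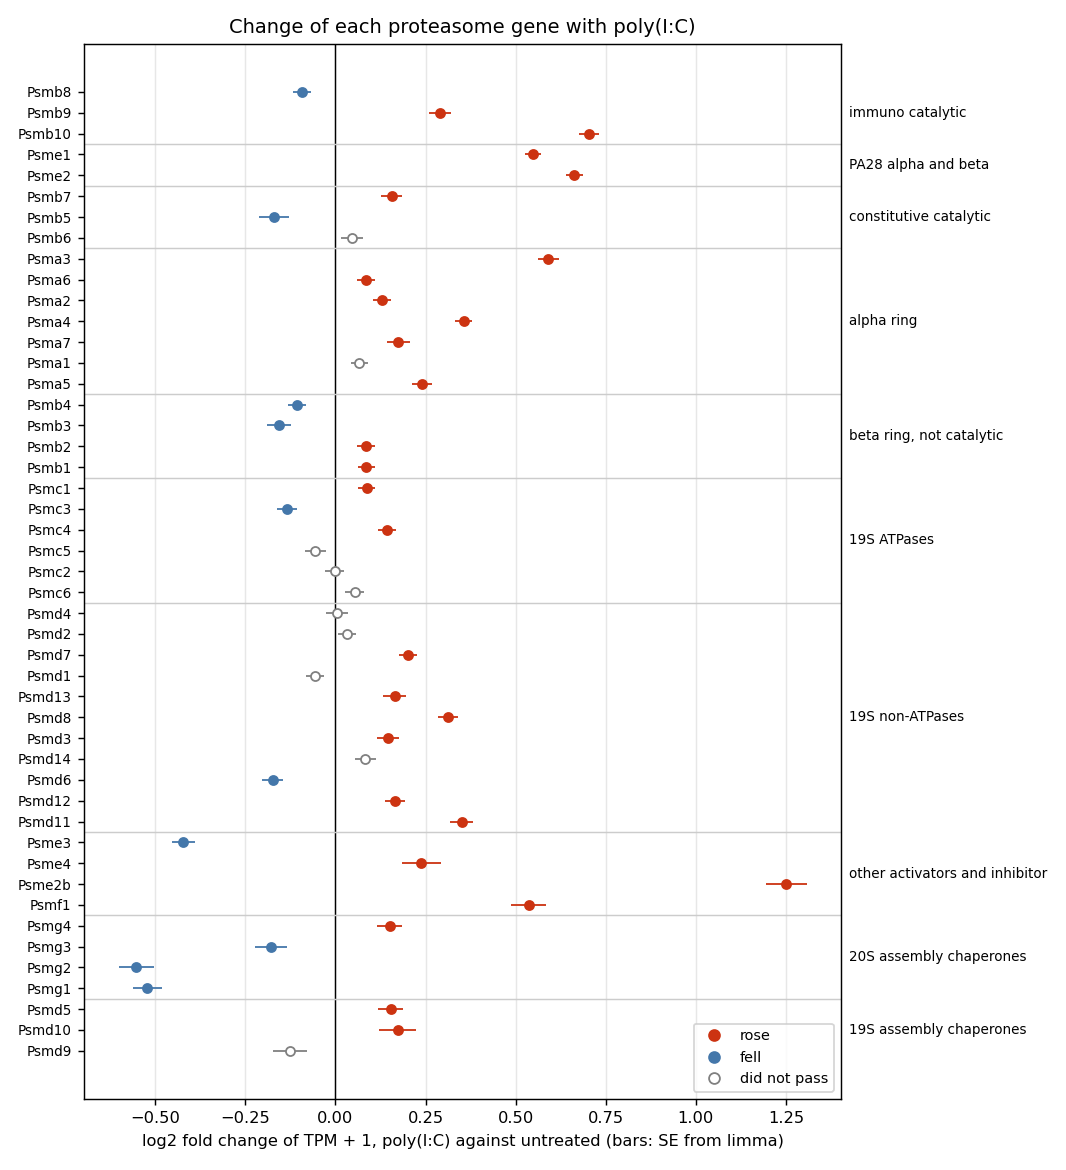
Log2 fold change of TPM + 1 with poly(I:C) for each of the 47 proteasome genes, grouped by role, with the SE from limma as bars; red points rose, blue points fell and open points did not pass. Psme2b, Psmb10, Psme2, Psma3, Psme1 and Psmf1 stand right of 0.5, and Psmg1 and Psmg2 stand left of -0.5.

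The 5 immunoproteasome genes did not move as 1 block. Psmb10, Psme1 and Psme2 rose 1.63-, 1.46- and 1.58-fold, Psmb9 rose 1.22-fold, and Psmb8 was slightly lower. Psmb10, whose product takes the place of Psmb7 and gives trypsin-like cleavage, was at 167 and 172 TPM untreated and at 274 and 280.1 TPM treated. The groups were well apart, at 169.8 ± 3.61 and 277 ± 4.24 TPM (SD, n = 2 libraries per group throughout), and the log2 fold change was 0.70 (limma, SE 0.029, adjusted p = 1.74e-05). It was the least abundant of the 3 immuno subunits in all 4 libraries.

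Psmb9, the counterpart of Psmb6, was at 759 and 799 TPM in untreated and 948 and 956 TPM in treated libraries. Its groups did not overlap, and it rose 1.22-fold (log2 fold change 0.29 by limma, SE 0.031, adjusted p = 0.000578). Psmb8, the counterpart of the chymotrypsin-like Psmb5, started highest of all 47 genes, at 813 and 837 TPM, and stood at 767 and 781 TPM after treatment. The treated values were both lower, with means in a ratio of 0.937 (log2 fold change -0.09; limma, SE 0.026, adjusted p = 0.0235). That call was lost after scaling to the median ratio (adjusted p = 0.268 in limma), without trend or robust moderation (0.129), without NT02 (0.122) and without PolyIC01 (0.112), so a fall of Psmb8 was not settled by these libraries.

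The PA28 genes moved together. Psme1, which encodes the alpha subunit, was at 609 and 615 TPM untreated and 889 and 900.2 TPM treated, a 1.46-fold rise (log2 fold change 0.55 by limma, SE 0.022, adjusted p = 1.70e-05). Psme2, which encodes the beta subunit, was at 595 and 599 TPM untreated and 954 and 938 TPM treated, a 1.58-fold rise (0.66, SE 0.023, adjusted p = 9.60e-06 in limma). Neither gene's groups overlapped, and with the treatment both passed Psmb8 in level. The ratio of Psme1 to Psme2 was 1.02 and 1.03 in untreated and 0.932 and 0.960 in treated libraries, lower in both. Psme2 has 2 curated transcripts, and both were higher in the treated libraries, at 563 and 586 against 351 and 346 TPM for the first and 391 and 351 against 244 and 253 TPM for the second.

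**Figure D2:**
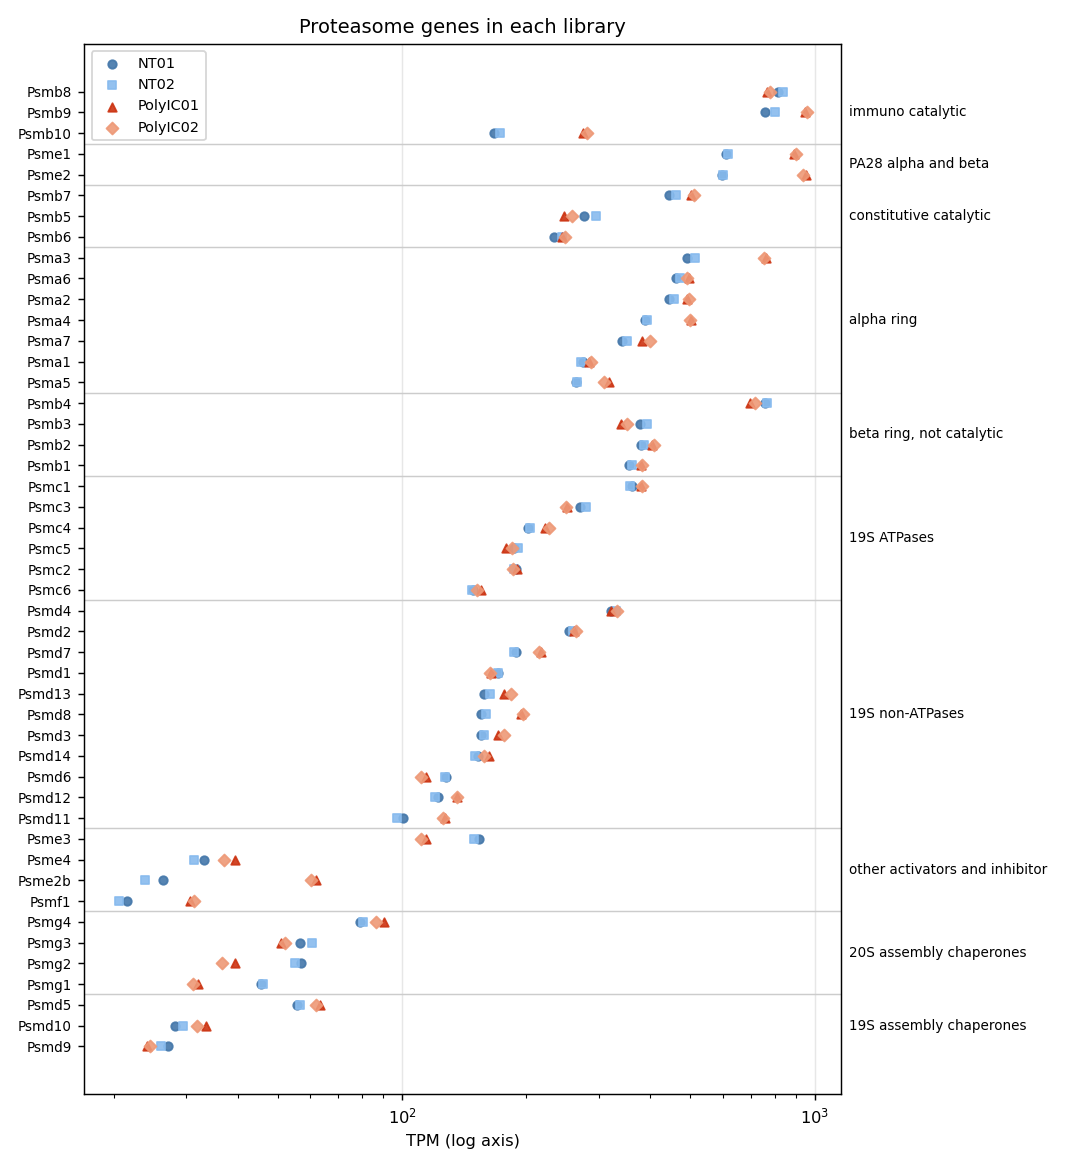
TPM of the 47 proteasome genes in each library on a log axis, grouped by role; circles and squares are the untreated libraries NT01 and NT02, triangles and diamonds the treated PolyIC01 and PolyIC02. Psmb8 and Psmb9 stand among the highest genes already in untreated cells, at 813 and 759 TPM in NT01, and Psmf1, Psme2b, Psmd9 and Psmd10 are the lowest there.

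The constitutive catalytic genes changed little and not in 1 direction. Psmb5 was at 275 and 294 TPM untreated and 247 and 259 TPM treated, both treated values being lower (log2 fold change -0.17 by limma, SE 0.042, adjusted p = 0.0161). This fall was lost after scaling to the median ratio (adjusted p = 0.0853 in limma), without trend or robust moderation (0.0638) and without PolyIC01 (0.0637). Psmb7 was at 444 and 462 TPM untreated and rose to 500.3 and 509 TPM (0.16, SE 0.029, adjusted p = 0.00523 in limma). Psmb6 was at 234 and 244 TPM untreated and 245 and 249 TPM treated, and its change did not pass (0.05, SE 0.030, adjusted p = 0.247 in limma). Of the 31-base words in Psmb5 transcripts, 71.7% also occur in transcripts of other genes of the GENCODE vM21 set, most of them in Gm3375. For Psmb6 the share was 6.24%. The level of Psmb5 may thus be less certain, but Gm3375 had no value among the summed symbols, and this was not tested.

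Immuno subunits outweighed constitutive ones before any treatment. Psmb8, Psmb9 and Psmb10 together made up 64.6% and 64.4% of the TPM of the 6 catalytic genes in untreated libraries and 66.7% and 66.5% in treated ones. The share thus moved by 2.11 percentage points, with both treated libraries higher (exact permutation p = 0.333, two-sided, the smallest that 2 against 2 libraries allow). Each immuno gene was then set against the partner it replaces, in 3 comparisons that all gave this same smallest p. TPM is per length, so levels of different genes can be compared.

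The 3 exchange ratios started and moved differently. Psmb8 stood at 2.95 and 2.84 times Psmb5 untreated and at 3.10 and 3.02 times treated, with log2 ratios higher by 0.08. Psmb9 stood at 3.24 and 3.27 times Psmb6 untreated and at 3.87 and 3.84 times treated, higher by 0.24 in log2. Psmb10 reached only 0.376 and 0.373 times Psmb7 untreated and 0.548 and 0.550 times treated, higher by 0.55 in log2. So Psmb10 had the lowest ratio in every library and the largest log2 shift of the 3, and all 3 ratios were higher in both treated libraries than in both untreated ones.

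**Figure D3:**
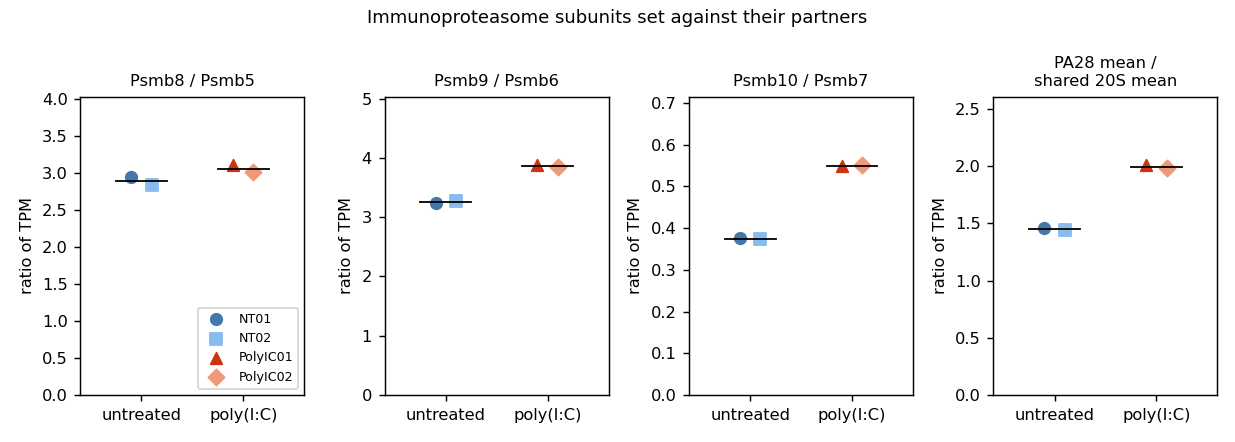
Ratio of TPM in each library, on axes that start at 0, for each immuno subunit over its constitutive partner and for the mean of Psme1 and Psme2 over the mean of the 11 shared 20S subunits; lines are group means. The Psmb10 to Psmb7 ratio is the lowest (0.376 and 0.373 untreated), and of the 3 exchange ratios its log2 shift (0.55) is the largest; the PA28 ratio goes from 1.46 and 1.44 to 2.01 and 1.99.

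In the alpha ring, which gates entry to the core, 6 of 7 genes rose and none fell, and Psma1 did not pass. Of all tested genes 28.4% rose and 32.4% fell. Psma3 was at 492 and 513 TPM untreated and 761 and 753 TPM treated, a 1.51-fold rise (log2 fold change 0.59 by limma, SE 0.029, adjusted p = 3.00e-05). Its treated values were well above the untreated ones, it was the highest alpha subunit in all 4 libraries, and the next changes were those of Psma4 (0.36) and Psma5 (0.24). Psma1, the lowest by the mean over the 4 libraries, was at 274 and 272 TPM untreated and 284 and 288 TPM treated (0.07, adjusted p = 0.0594 in limma). Psma2, Psma6 and Psma7 rose by 0.13, 0.08 and 0.17, and the calls of Psma2 (adjusted p = 0.0549 in limma) and Psma6 were lost without trend or robust moderation. For Psma5, 61% of its 31-base words also occur in other genes.

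The call for Psma3 rested on a predicted transcript. That transcript, 1 of 4, held 95.2% and 95.4% of the gene's TPM untreated and 96.8% and 96.9% treated, at 468 and 490 against 736 and 730 TPM. The 3 curated transcripts summed to 23.6 and 23.4 TPM untreated and to 24.3 and 23.6 TPM treated, and with curated transcripts alone the gene did not pass (log2 fold change 0.02, adjusted p = 0.688 in limma). The long noncoding gene 3110056K07Rik, which overlaps Psma3, rose by 0.40 from 11.2 and 10.4 TPM. For Psma4 the curated transcript rose 1.35-fold by the ratio of mean TPM and the predicted one 1.14-fold. In all, 10 of the 47 genes had both kinds of transcript, and 31 had only 1 transcript.

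**Figure D4:**
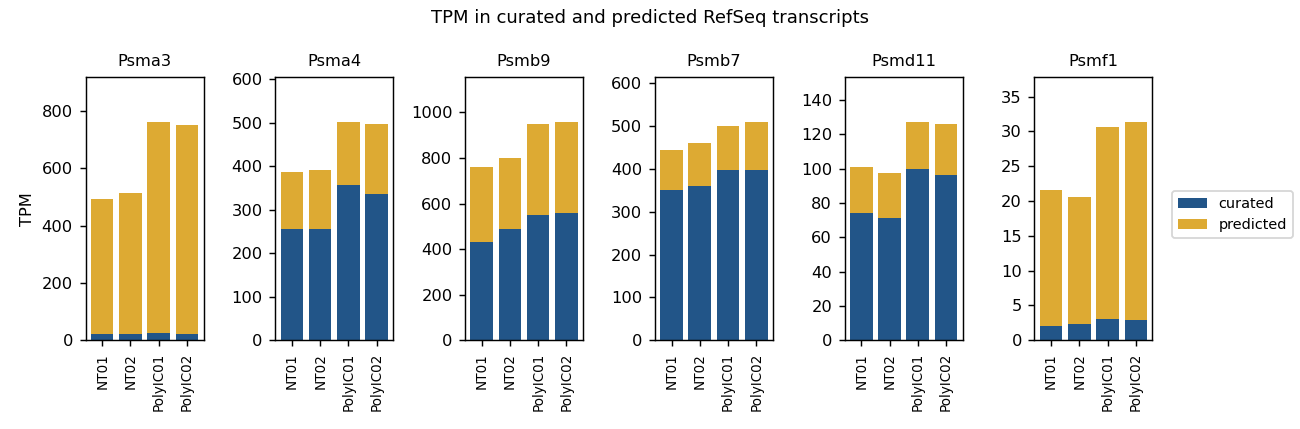
TPM of 6 proteasome genes in each library, divided between curated (blue) and predicted (yellow) RefSeq transcripts; each panel has its own axis from 0. Psma3 and Psmf1 lie almost wholly in predicted transcripts (95.2% and 90.4% in NT01), whereas the curated part of Psmb9 is 57.1% there.

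The non-catalytic beta subunits divided evenly, with 2 rises and 2 falls, none above 0.16 in size. Psmb4 was the highest, at 756 and 767 TPM untreated and 699 and 716 TPM treated, and fell by 0.11 on the log2 scale (adjusted p = 0.0120 in limma). Psmb3, the lowest by the mean over the 4 libraries, was at 377 and 393 TPM untreated and 340 and 351 TPM treated and fell by 0.16 (adjusted p = 0.00798 in limma). Both falls were lost after scaling to the median ratio (adjusted p = 0.179 and 0.0749 in limma), and that of Psmb4 also without trend or robust moderation (0.0897), NT02 (0.0560) or PolyIC01 (0.0702). Psmb1 and Psmb2 rose by 0.09 and 0.08. The 11 alpha and beta subunits that both forms of the core share averaged 412 and 421 TPM untreated and 459 and 462 TPM treated. Around that average they differed by a coefficient of variation of 32.7% and 32.8% untreated and 33.3% and 33.0% treated, although each is present in equal number in the particle.

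Of these sets, the PA28 genes moved most against the shared core. The mean of Psme1 and Psme2 stood at 1.46 and 1.44 times the mean of the 11 shared subunits in untreated libraries and at 2.01 and 1.99 times in treated ones. Against the same core mean, with Psma3 included, the mean of the 3 immuno subunits hardly moved, at 1.41 and 1.43 untreated and 1.44 and 1.45 treated. That mean joins Psmb10 and Psmb9, which rose 1.63- and 1.22-fold, with the abundant Psmb8, at 0.937 of its untreated level. The constitutive mean stood at 0.772 and 0.793 untreated and 0.720 and 0.733 treated. These ratios differed between groups without overlap, each with an exact permutation p of 0.333 (two-sided), the smallest possible. The core mean they share includes Psma3, whose rise rested on a predicted transcript. That mean rose 1.11-fold, while the median log2 fold change of its 11 genes was 0.09 and that of Psma3 was 0.59. A core mean with a smaller rise would raise all treated ratios, and the weight of Psma3 in them was not tested.

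The 19S cap was less abundant than the core, and its mean changed less, though its median gene did not. The mean rose 1.05-fold for the cap and 1.11-fold for the shared core. Their median log2 fold changes were nearly alike, at 0.08 and 0.09. The core mean includes Psma3, whose 1.51-fold rise rested on a predicted transcript, and the weight of Psma3 in the contrast of means was not tested. The 17 subunit genes of the cap averaged 192 and 193 TPM untreated and 201 and 203 TPM treated, or 0.467 and 0.460 against 0.438 and 0.438 times the shared core. Of the 6 ATPase genes, whose products unfold the substrate, 2 rose (Psmc1 by 0.09 and Psmc4 by 0.14), 1 fell and 3 did not pass. Psmc1 was the highest, at 361 and 356 TPM untreated and 380 and 382 TPM treated. Psmc6 was the lowest, at 148 and 148 TPM untreated and 155 and 152 TPM treated (adjusted p = 0.134 in limma). Psmc3 fell by 0.13, a call lost after scaling to the median ratio (adjusted p = 0.0834 in limma) and without trend or robust moderation (0.0562), and the changes of Psmc2 and Psmc5 were -0.001 and -0.06.

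Among the 11 non-ATPase genes there were 6 rises and 1 fall, and 4 missed the threshold, where 28.4% of all tested genes rose and 32.4% fell. The largest rise was that of Psmd11, which encodes a scaffold subunit of the lid and was also the lowest by the mean over the 4 libraries, at 101 and 97.3 TPM untreated and 127 and 126 TPM treated (log2 fold change 0.35 by limma, SE 0.031, adjusted p = 0.0003). Psmd8 (0.31) and Psmd7 (0.20), also of the lid, followed, and Psmd12, Psmd13 and Psmd3 rose by 0.16, 0.16 and 0.15. Psmd6 fell by 0.17 and held this call under every alternative setting run. The ubiquitin receptor gene Psmd4 was the highest, at 321 and 330.2 TPM untreated and 321 and 332 TPM treated, with overlapping groups (0.004, adjusted p = 0.917 in limma). The base scaffold genes Psmd1 and Psmd2 and the deubiquitinase gene Psmd14 did not pass, at -0.06, 0.03 and 0.08.

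Among the remaining activators the nuclear form of the PA28 family went the other way. Psme3, which encodes PA28 gamma, was at 153 and 149.7 TPM untreated and 115 and 111 TPM treated, a fall to 0.745 of the untreated level (log2 fold change -0.42 by limma, SE 0.031, adjusted p = 0.000142). Both treated values were lower than both untreated ones, so the gamma gene moved opposite to the alpha and beta genes. Psme4, which encodes the activator PA200, was at 33.2 and 31.3 TPM untreated and 39.4 and 37.0 TPM treated and rose by 0.24 (adjusted p = 0.0115 in limma). That call was lost without PolyIC01.

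Psmf1, which encodes the proteasome inhibitor PI31, was at 21.5 and 20.6 TPM untreated and 30.7 and 31.3 TPM treated, a 1.47-fold rise (log2 fold change 0.54 by limma, SE 0.048, adjusted p = 0.000310). Its predicted transcript held 88.9% to 90.9% of its TPM in the 4 libraries, and with curated transcripts alone the change was 0.33 (adjusted p = 0.0533 in limma). The largest change of the 47 was that of Psme2b, a close copy of Psme2, at 26.3 and 23.9 TPM untreated and 61.8 and 60.2 TPM treated (1.25, SE 0.056, adjusted p = 2.35e-05 in limma). Its value is uncertain on 2 counts. Of its 31-base words 76.5% also occur in Psme2, and its gene overlaps 9930111J21Rik1, which itself rose from 42.0 and 37.6 to 89.1 and 82.6 TPM. The share of Psme2b in the sum of Psme2 and Psme2b was 4.23% and 3.83% untreated and 6.09% and 6.04% treated.

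Of the 4 genes for chaperones that assemble the 20S core, 3 fell and 1 rose, where 32.4% of all tested genes fell and 28.4% rose. Psmg1 was at 45.6 and 46.1 TPM untreated and 32.0 and 31.2 TPM treated (log2 fold change -0.52 by limma, SE 0.040, adjusted p = 0.000166). Psmg2, its partner in building the alpha ring, was at 57.1 and 55.2 TPM untreated and 39.3 and 36.6 TPM treated (-0.55, SE 0.049, adjusted p = 0.00029 in limma). These partners fell by nearly the same amount and kept their calls under every alternative setting run, while the alpha ring genes did not fall. Psmg3 fell by 0.18, a call lost after scaling to the median ratio (adjusted p = 0.0513 in limma), without NT02 (0.0538) and without PolyIC01 (0.0681). Its partner Psmg4, the highest of the 4, was at 78.9 and 80.5 TPM untreated and 90.5 and 86.7 TPM treated and rose by 0.15 (adjusted p = 0.0136 in limma), a call lost without PolyIC01. The maturation factor gene Pomp, outside the families Psma to Psmg, was at 820 and 813 TPM untreated and 844 and 836 TPM treated and did not pass (0.04, adjusted p = 0.152 in limma).

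The chaperones of the 19S base were low and changed little. Psmd5, the highest, was at 55.7 and 56.6 TPM untreated and 63.3 and 61.9 TPM treated and rose by 0.15 (adjusted p = 0.0115 in limma), and Psmd10 rose by 0.17. Psmd9, the lowest, was at 27.1 and 26.1 TPM untreated and 24.1 and 24.5 TPM treated and did not pass (-0.13, adjusted p = 0.0641 in limma). Calls for Psmd5 and Psmd10 were both lost without PolyIC01, and that of Psmd5 also with curated transcripts alone (adjusted p = 0.0552 in limma).

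Psmb8 and Psmb9 lie beside the peptide transporter genes, and some neighbours of the immunoproteasome genes moved more than the genes they lie beside. On chromosome 17, in the MHC, the order is Psmb9, Tap1, Psmb8 and Tap2, all within 34182030 to 34216321 (GRCm38). Tap1, which starts 226 bases from Psmb9 and encodes one chain of the peptide transporter, was at 271 and 275 TPM untreated and 498 and 501 TPM treated (log2 fold change 0.87 by limma, SE 0.024, adjusted p = 4.62e-06). Tap2, which encodes the other chain, was at 210.3 and 211 TPM untreated and 315 and 315 TPM treated (0.58, SE 0.024, adjusted p = 1.70e-05 in limma). Psmb8 lies 970 bases from Tap1 and 3025 bases from Tap2, so a gene that was slightly lower stood between neighbours that rose.

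On chromosome 14 Psme1 and Psme2 lie 5913 bases apart. Psme2 is followed 612 bases away by Rnf31, a subunit gene of the linear ubiquitin ligase, which rose by 0.74, and then by the interferon signalling gene Irf9, which rose by 0.52. Emc9, between the PA28 genes and overlapping the end of Psme1, fell by 0.34 from a low level of 7.98 and 8.56 TPM. Near Psmb10 on chromosome 8, Lcat, 1159 bases away, did not pass, and Ctrl, 1866 bases away, rose by 0.87 from 1.54 and 1.71 TPM.

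**Figure D5:**
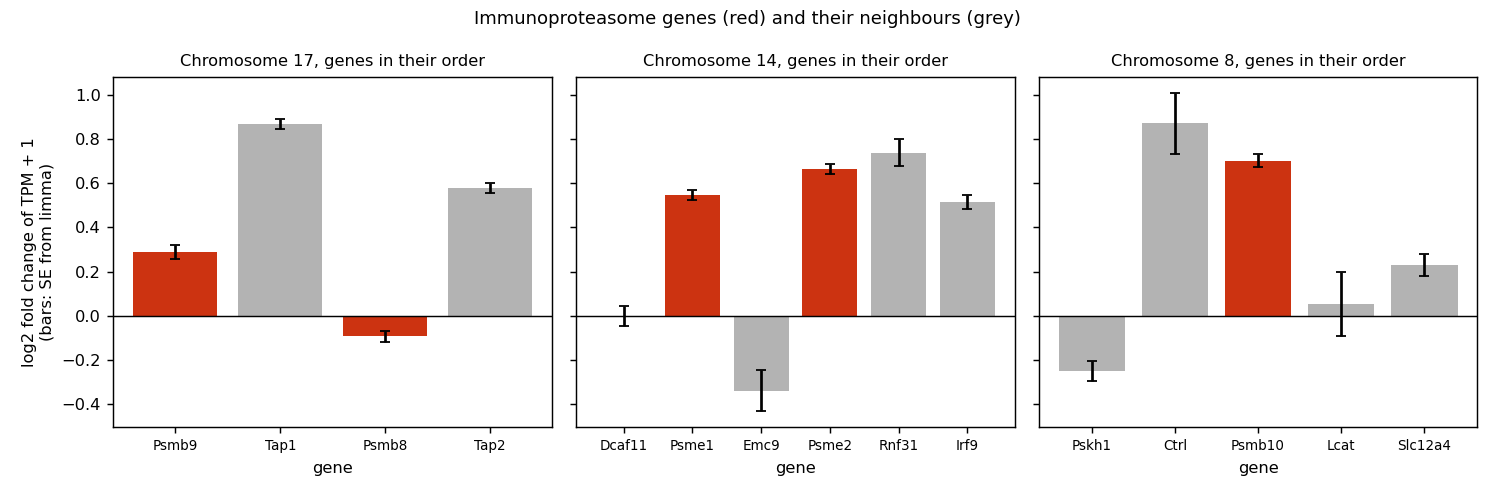
Log2 fold change of TPM + 1 with poly(I:C), with SE from limma, for immunoproteasome genes (red) and the tested genes within 20 kb of them (grey), in gene order on 3 chromosomes. Tap1 (0.87) and Tap2 (0.58) rise on both sides of Psmb8, which lies just under 0.

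Genes that regulate or feed the proteasome are given next. Their counts of rises and falls, here and below, stand beside 28.4% and 32.4% of all tested genes. Among interferon-side regulators, Irf1, a known activator of immunoproteasome genes, rose from 82.2 and 73.3 to 224 and 216 TPM (1.49), and the class I activator gene Nlrc5 rose from 30.9 and 26.8 to 121 and 112 TPM (1.98). Irf7 (5.03), Stat2 (2.00), Irf2 (0.64) and Irf9 (0.52) rose as well. Of these 6 genes, Irf1, Nlrc5, Irf7 and Stat2 changed more on this scale than any of the 5 immunoproteasome genes, and Irf2 and Irf9 less than Psmb10.

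Regulators tied to proteasome stress were partly raised. Of 6 genes 3 rose and none fell. Nfe2l1, the factor that restores proteasome genes when proteasomes fail, went from 81.4 and 77.5 to 124 and 122 TPM (0.62). The antioxidant factor gene Nfe2l2 went from 38.9 and 39.3 to 78.5 and 74.3 TPM (0.95), and Stat3 rose by 0.59. Ddi2 and Ngly1, whose products process the Nfe2l1 protein, and the unfoldase gene Vcp did not pass (0.03, 0.08 and 0.01).

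Genes that supply or activate ubiquitin went in both directions. The polyubiquitin gene Ubb and the activating enzyme gene Uba6 rose by 0.13 and 0.29. Rps27a, which encodes ubiquitin joined to a ribosomal protein, fell by 0.46, and the main activating enzyme gene Uba1 fell by 0.08. Of 5 tested shuttle factors, which carry substrates to the cap, 3 fell and none rose, with Ubqln4 falling by 0.63.

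Among 9 tested assembly and receptor genes 3 rose and 3 fell, none by 0.5 or more; the ubiquitin receptor gene Adrm1 rose by 0.22 and the deubiquitinase gene Usp14 fell by 0.14. Of 9 peptide transport and loading genes 5 rose and 3 fell. All 5 rose by at least 0.5: Tap1, Tap2, Tapbp (1.07), Tapbpl (0.83) and B2m (0.88), the last encoding the class I light chain. Of 9 tested cytosolic peptidases, which trim or destroy proteasome products, 3 rose and 4 fell. Lap3 rose by 1.20, from 70.1 and 69.7 to 164 and 159.8 TPM, whereas Blmh, Thop1 and Nrd1 fell by 0.61, 0.68 and 0.72.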

How the data were processed

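The authors deposited 1 table of values per RefSeq transcript. It is named as FPKM, but each column used sums to 1000000, so these deposited values are treated as TPM. Per the submitters' processing notes, GRCm38, kallisto 0.42.4 and bcl2fastq 2.20.0.422 were used, with no role or order stated. Per the labels' protocols, the library kit (NEBNext Ultra II Directional) keeps strand; use of strand in quantification is not stated, so overlapping genes may share reads. TPM keeps no depth, so depth is unknown and no counting interval is given. The header names 5 samples for 6 value columns; 2 columns were not used in any step, and column numbers are headings, not settled replicates.

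Of 107384 transcripts, 86722 (80.8%) matched a RefSeq symbol (GRCm38.p6), with 91.8% to 92.2% of TPM, and were summed per symbol. Genes at a mean of 0.5 TPM or more were fitted on log2(TPM + 1), which understates changes of low genes, in limma 3.58.1 (R 4.3.3) with trend and robust moderation and 2 residual degrees of freedom, p adjusted over all genes. Simulated data with known changes served to test the fit. Shared 31-base words were counted in GENCODE vM21 transcripts. Python 3.11.15, pandas 2.3.3 and matplotlib 3.10.9 were used. Proteasome genes, lists and tests were chosen with earlier results of these data known. Values per library were printed for the immunoproteasome and constitutive catalytic genes, for members past the threshold that changed by at least 0.5, and for the highest and lowest of each role; pathway genes past the threshold that changed by at least 0.5 were named, others being named after their values were seen. Some genes of the lists are not reported here.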

Additional observations from a re-analysis of the deposited data

How the results depend on the processing

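Over 12 alternatives fixed with earlier results known (other pseudocounts, filters, moderation, scaling, curated transcripts, a replicate block and leaving out each library), 26 of 47 proteasome genes kept their direction and their side of the threshold under every one. Rises numbered 19 to 29 against 27. The 10 falls became 6 without trend or robust moderation, 4 after scaling to the median ratio, and 6 to 10 when 1 library was left out. The 3556 rises and 4062 falls over all genes ranged from 2561 to 3854 and from 3381 to 4277. With curated transcripts only, the immuno share of catalytic TPM moved by 1.79 percentage points instead of 2.11 and the log2 ratio of Psmb9 to Psmb6 by 0.22 instead of 0.24; leaving out 1 library gave 2.00 to 2.23 points, 0.24 to 0.25 for Psmb9, 0.05 to 0.11 for Psmb8 to Psmb5 and 0.54 to 0.56 for Psmb10 to Psmb7. The change of Psmc2 (-0.001) turned to 0.016 after scaling and ranged from -0.015 to 0.012 when 1 library was left out, above 0 without NT01 (0.0082) or PolyIC02; that of Psmd4 (0.004) ranged from -0.021 to 0.030, below 0 without NT01 (-0.017) or PolyIC02. Neither passed anywhere. With the replicate block, by heading numbers that may be misplaced, 29 proteasome genes rose and 10 fell, and 3780 and 4277 of all genes; deviations of same-numbered libraries correlated at 0.022. Except where a left-out library or transcript shows it, the cause of a lost call was not tested.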
